A study of Mus musculus with 2 samples.

Results

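The transcripts of the mitochondrial genome and of the nuclear genes that copy, transcribe and turn over that genome's RNA were followed in bone marrow LSK cells (Lin-Sca-1+c-Kit+, the fraction that holds stem cells and early progenitors) by single cell RNA-seq. The set was chosen by name and function: the 13 protein-coding genes whose symbols start with mt- and 22 nuclear genes, thus 35 of the 32285 genes in the files, and all 35 were found there. All animals were B6 mice, 8 to 10 weeks of age, that carried the SCLtTA/BCR-ABL transgenes, in which tetracycline withdrawal turns on BCR-ABL under the SCL promoter, and that had the same induction time. Such mice model chronic myeloid leukemia (CML). The control library was from animals with intact miR-142 (miR-142 WT CML), and the second was from miR-142-/- animals (miR-142 KO CML). Each group was thus 1 library and the number of mice behind each is not given in the sources used here, so no test could be run, no value carries a spread between animals, and every interval covers counting error only.

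Mitochondrial DNA is transcribed from both strands as long precursors, and the transfer RNAs that lie between most of the coding genes are cut out to release the messenger RNAs. POLRMT, the mitochondrial RNA polymerase, starts these transcripts with TFAM and TFB2M. The level of each mature messenger is then set largely after transcription, by LRPPRC and SLIRP, which keep messengers stable, by the FASTK family and by the SUPV3L1 and PNPT1 degradosome. The encoded proteins are subunits of complexes I, III, IV and V of oxidative phosphorylation (OxPhos), in which they are assembled with nuclear-encoded subunits.

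Cells were barcodes with 8000 or more unique molecular identifiers (UMIs, each marking 1 captured transcript) and under 10% mt- UMIs. There were 5363 cells with a median of 19443 UMIs in miR-142 WT CML and 5458 cells with a median of 24182 UMIs in miR-142 KO CML, and 4 cell barcodes were found in both libraries. Mir142hg, the host transcript of the deleted miRNA, had 1260 UMIs in WT cells and 20 in KO cells. Among the LSK sort markers, Kit was detected at 86.4 CPM (WT) and 68.3 CPM (KO), and Ly6a, the gene for Sca-1, at 96.8 and 152.9 CPM. CPM is the gene's summed UMIs over all cells of a library, scaled so that both libraries have the same total. Of the mature lineage genes checked, the summed level was 222.6 CPM in WT and 318.7 CPM in KO, of which 206.7 and 301.3 CPM came from 1 gene, Nkg7, which myeloid progenitors also express. Genes with a mean of 10 CPM or more over both libraries were compared, 7483 in all, and the median of their log2 ratios (KO over WT) was -0.08, so that a ratio of 0 lies slightly above the typical gene.

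The sequences that bear on the counts of single mt- genes, and on the deleted miRNA, are given first (GRCm38). The open reading frames of mt-Atp8 and mt-Atp6 overlap by 43 bases on the plus strand of the mitochondrial genome (chrM:7927-7969), and those of mt-Nd4l and mt-Nd4 by 7 bases (chrM:10167-10173), and each pair is kept on 1 messenger. Fragments within these overlaps belong to both genes, so the counts of these 4 genes are less certain than the others. The first line below opens with the start codon of mt-Atp6 in capitals, inside mt-Atp8. The second is the 30-base window of mt-Atp8 with most bases in runs of 4 or more A, which are in capitals. The third is the end of mt-Nd4l, with the bases shared with mt-Nd4 in capitals.

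mt-Atp8/mt-Atp6 overlap (chrM:7927-7956, plus strand): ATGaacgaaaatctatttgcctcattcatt
mt-Atp8 A-rich window (chrM:7881-7910, plus strand): cAAAAtcactaacaaccatAAAAgtAAAAA
mt-Nd4l end (chrM:10144-10173, plus strand): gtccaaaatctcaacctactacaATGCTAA

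The 3′ kit primes on stretches of A, which the cell adds at messenger ends but which a transcript can also hold inside. mt-Atp8 had the highest A content of the 13 mt- transcripts (40.7%) and the most runs of 4 or more A for its length (6 in 204 bases, or 29.4 per kb). The next was mt-Nd3 with 11.5 per kb, while mt-Co1 had 3.24 per kb. mt-Nd6, the only one of the 13 on the minus strand, had none and ended in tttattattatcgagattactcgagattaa (chrM:13552-13581). Whether the UMIs of mt-Atp8 stem from its own A runs was not tested.

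The mature strands of the deleted miRNA follow from RefSeq (GRCm38.p6, plus strand of chromosome 11), with the seed, bases 2 to 8, in capitals.

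miR-142a-5p (chr11:87756867-87756887): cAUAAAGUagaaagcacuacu
miR-142a-3p (chr11:87756903-87756925): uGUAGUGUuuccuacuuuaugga

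Among the 22 nuclear members, the longest annotated 3′ untranslated region had a median length of 375 bases, as compared with 961 bases over 21007 protein-coding genes (GENCODE vM21). None of the 22 held ACACTAC, the match to the miR-142a-3p seed in the sense strand, which 6.03% of all genes held. Only Mterf4, a mitochondrial transcription termination family protein, held ACTTTAT, the match to the miR-142a-5p seed, which 14.3% of all genes held. It lay at base 328 of 2167 in tatgtcatagcACTTTATttaatgaaaac (chr1:93301033-93301061, minus strand, match in capitals). These are letter matches in windows of unequal length, not measured sites.

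The mitochondrially encoded messengers were lower in miR-142 KO CML cells as a sum and in 12 of 13 genes. They made up 2.528% of all UMIs in WT cells (exact 95% interval 2.525 to 2.530%) and 1.789% in KO cells (1.787 to 1.791%), which was 29.2% lower or a log2 ratio of -0.50. Per cell the median share was 2.85% in WT (quartiles 2.41 and 3.27%) and 2.004% in KO (1.59 and 2.43%). A WT cell carried a median of 563 mt- UMIs and 18854 other UMIs, and a KO cell 467 and 23686. Over all cells, the median KO cell thus held fewer mt- UMIs and more of the others. Within the 8 cell groups described further on, the median of all UMIs per cell was higher in WT in 7. In sums over a library, fewer cells of an mt- rich kind and less mt- RNA per cell cannot be told apart, so the values within cell groups are given further on.

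A gene was called when it was at least 20% lower or at least 25% higher in KO, which is the same fold in both directions. Of the 13 mt- genes, 9 were called lower and 0 higher. Of the 7483 genes compared, 18.8% were called lower and 7.6% higher. The median log2 ratio of the 13 was -0.44, as compared with -0.08 over all genes. The plot of the members' ratios shows the 13 apart from the nuclear members, with mt-Atp8 as the exception.

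**Figure D1:**
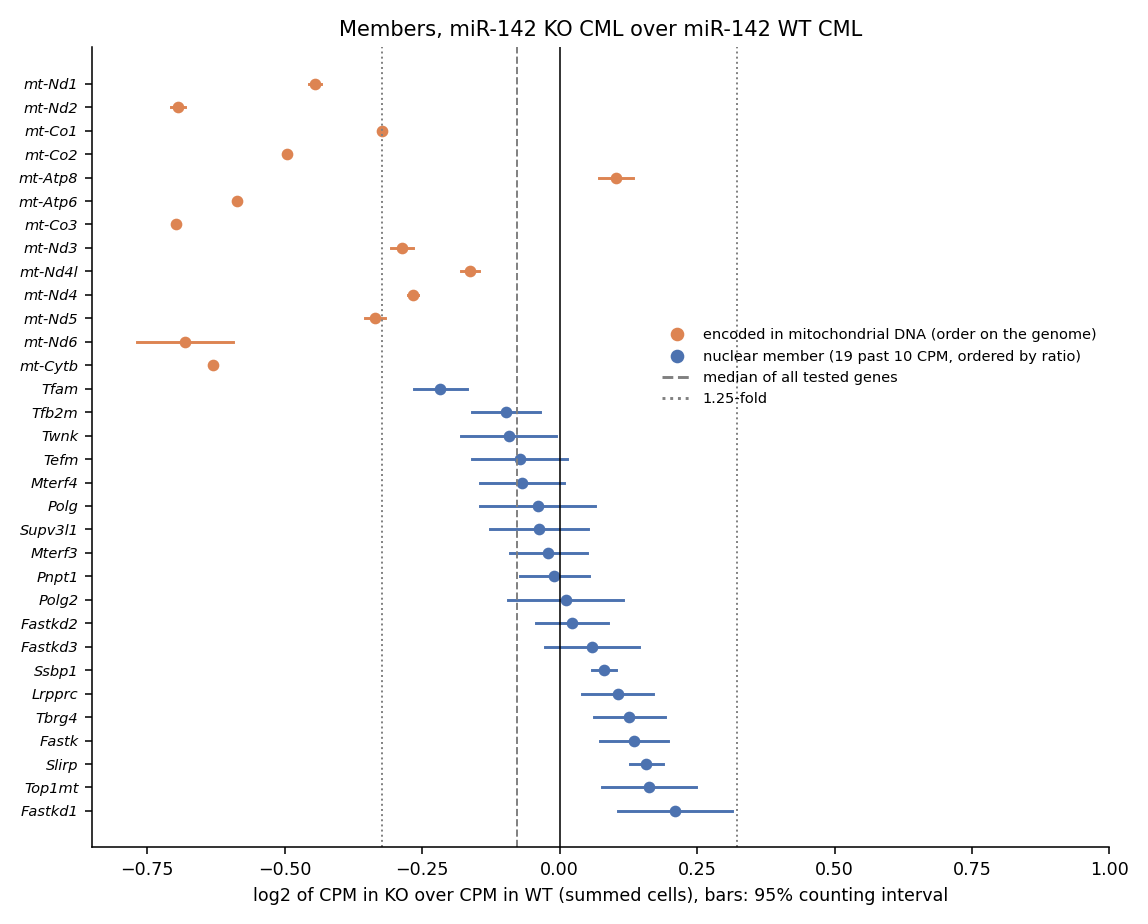
Log2 ratio (KO over WT) of the CPM summed over cells, for the 13 mt- genes in their order on the genome (orange) and the 19 nuclear members with a mean of 10 CPM (blue). Points are ratios of 1 library to 1 library, bars are 95% counting intervals, the dashed line is the median of all genes compared (-0.08) and dotted lines mark the fold that was called. All mt- genes but mt-Atp8 (0.10) lie left of 0, and the nuclear members lie between -0.22 and 0.21.

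Complex I, which takes electrons from NADH, has 7 of its subunits encoded in mitochondrial DNA. mt-Nd2 went from 817 CPM in WT to 505 CPM in KO (log2 ratio -0.69, interval -0.71 to -0.68). mt-Nd1 was 1066 CPM in WT and 783 CPM in KO (-0.44). mt-Nd5 was 369.8 and 293 CPM (-0.34). These 3 were called, together with mt-Nd6, which is read from the other strand and is rare, at 18.3 and 11.4 CPM (-0.68, interval -0.77 to -0.59). The remaining 3 complex I genes lie next to each other on the genome and differed less: mt-Nd3 at 315 and 258.5 CPM (-0.29), mt-Nd4 at 1314 and 1092 CPM (-0.27) and mt-Nd4l at 416 and 372 CPM (-0.16).

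mt-Cytb, the only mitochondrially encoded subunit of complex III and the last coding gene before the control region on its strand, was 2825 CPM in WT and 1825 CPM in KO (-0.63). Complex IV, cytochrome c oxidase, takes its catalytic core from 3 mt- genes. Of these, mt-Co3 differed most, from 3576 to 2205 CPM (-0.70), then mt-Co2 from 4232 to 3002 CPM (-0.50), and mt-Co1 least, from 4648 to 3717 CPM (-0.32). The counting intervals of the 3 did not overlap (-0.70 to -0.69, -0.50 to -0.49 and -0.33 to -0.32). Nearby genes on the same precursor thus differed in their ratios.

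The genes of complex V, the ATP synthase, gave the widest gap. mt-Atp6, which codes for part of the proton channel, had the most mt- UMIs in WT, and mt-Co1 had slightly more in KO. mt-Atp6 went from 5565 to 3704 CPM (-0.59, interval -0.59 to -0.58). mt-Atp8, which shares its messenger, was 114 CPM in WT and 122 CPM in KO (0.10, interval 0.07 to 0.13). The 2 genes of this shared messenger therefore stood on opposite sides of 0.

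Per kb of transcript, the order of the 5 messengers with most UMIs was the same in both libraries. mt-Atp6 stood at 8172 CPM per kb in WT and 5440 in KO, mt-Co2 at 6187 and 4388, mt-Co3 at 4561 and 2812, mt-Co1 at 3009 and 2406, and mt-Cytb at 2469 and 1595. mt-Nd6 was lowest in both, at 35.3 and 22.0 CPM per kb. With 3′ counting a transcript gives about 1 UMI whatever its length, so values per kb do not compare molecules.

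The make-up of the mt- UMIs does not move with the scaling to library totals. The 5 genes with most UMIs took 82.5% of them in WT and 80.8% in KO. mt-Atp8 went from 0.449 to 0.682% of the mt- UMIs, a log2 ratio of shares of 0.60. mt-Nd4l went from 1.65 to 2.08% (0.34), mt-Nd4 from 5.20 to 6.11% (0.23) and mt-Co1 from 18.4 to 20.8% (0.18). On the other side, mt-Co3 went from 14.1 to 12.3% (-0.20), mt-Nd2 from 3.23 to 2.82% (-0.19), mt-Nd6 from 0.0724 to 0.0639% (-0.18) and mt-Cytb from 11.2 to 10.2% (-0.13). In all, the share of 7 genes was higher in KO and that of 5 was lower, beyond counting error. The share of mt-Nd1 was among the 7 higher ones, at 4.22% in WT and 4.38% in KO (0.05), but within the cell groups it was lower in KO in 8 of 8 (-0.46 to -0.003). For mt-Co2 the shares were 16.7 and 16.8%, and its interval held 0.

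**Figure D2:**
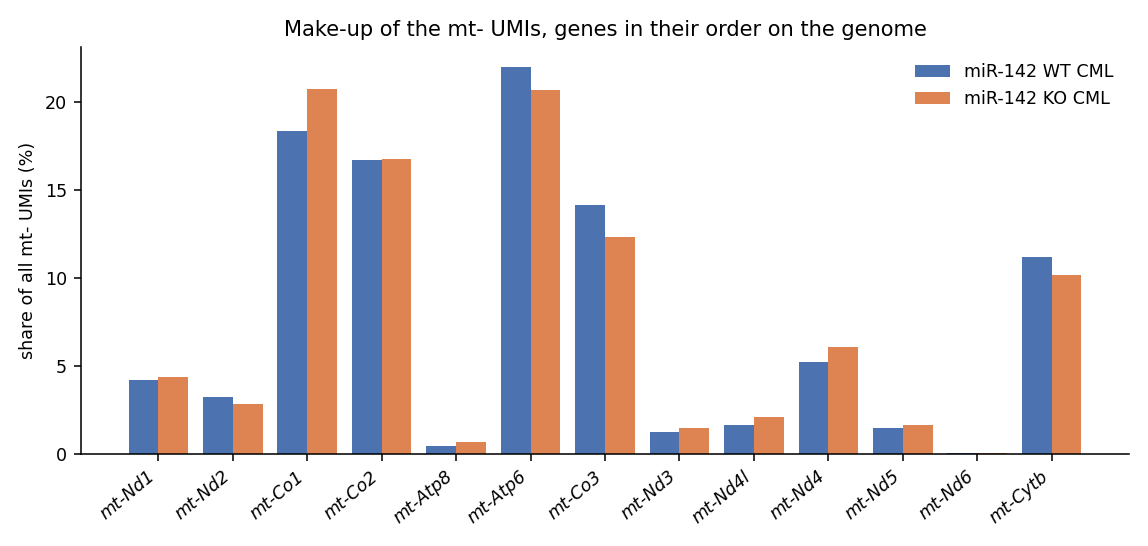
Share of each mt- gene in all mt- UMIs (percent, bars from 0) in the WT library (blue) and the KO library (orange), with genes in their order on the genome. mt-Co1 was 18.4% in WT and 20.8% in KO, and mt-Co3 14.1 and 12.3%.

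None of the nuclear members was called (0 of 19 compared), and their median log2 ratio was 0.01. Of the 22, Polrmt, Tfb1m and Fastkd5 did not reach the mean of 10 CPM. Fastkd1 was under 10 CPM in WT and reached the mean only through its KO level. Without the filter Tfb1m was called lower, beside 37.4% of all genes, and the median was 0.001, beside -0.20 over all genes. Among the 19, 10 were higher and 9 lower in KO. The counting interval lay above 0 for 7, below 0 for 3 and held 0 for 9. Of all 7483 genes compared, 2850 were higher and 4633 lower in KO, with 7.6% called higher and 18.8% called lower.

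The transcription genes had a median log2 ratio of -0.07 over the 6 compared. Tfam, which packs mitochondrial DNA and opens its promoters, was the lowest of the nuclear members compared, going from 51.8 to 44.6 CPM (-0.22, interval -0.26 to -0.17). Tfb2m, the initiation factor, was 29.9 and 27.9 CPM (-0.10, interval -0.16 to -0.04). The elongation factor Tefm (-0.07), Mterf4 (-0.07) and Mterf3 (-0.02) had intervals that held 0. Top1mt, the mitochondrial topoisomerase, stood at 14.3 and 16.03 CPM (0.16, interval 0.08 to 0.25). Among the genes under 10 CPM, Polrmt was 9.37 and 8.11 CPM (-0.21, interval -0.32 to -0.10). Tfb1m, a methyltransferase of the small ribosomal RNA, was 9.88 and 7.11 CPM (-0.48, interval -0.59 to -0.36).

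The genes that copy mitochondrial DNA were close to 0, with a median of -0.01 over 4. Ssbp1, the single-strand binding protein, was the most abundant nuclear member with 208 CPM (WT) and 220.4 CPM (KO) (0.08, interval 0.06 to 0.10). Twnk, the helicase, was 15.3 and 14.3 CPM (-0.09). The polymerase subunits Polg and Polg2 were each near 10 CPM, with ratios of -0.04 and 0.01 whose intervals held 0.

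The genes of messenger stability and turnover were higher in KO in 7 of 9 compared, with a median of 0.11, beside 2850 of 7483 over all genes. Fastkd1, which was among the 7, passed the filter on low values only through its KO level. Slirp was 114 CPM in WT and 127 CPM in KO (0.16, interval 0.13 to 0.19), and its partner Lrpprc 25.8 and 27.8 CPM (0.11, interval 0.04 to 0.17). Of the FASTK family, Fastkd1 was 9.57 and 11.1 CPM (0.21, interval 0.11 to 0.31), Fastk 27.5 and 30.2 CPM (0.14) and Tbrg4, also known as Fastkd4, 25.1 and 27.4 CPM (0.13). Fastkd2 (0.02) and Fastkd3 (0.06) had intervals that held 0. The degradosome genes Pnpt1 (-0.01) and Supv3l1 (-0.04) did as well. Fastkd5 was rare, at 4.25 and 4.46 CPM.

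To ask how far these values depend on which cells each library held, cells were gated on the summed UMIs of marker genes, none of which is a member. The make-up of the libraries was unlike. Cells high in the granule genes Elane, Mpo, Prtn3 and Ctsg were 11.7% of WT and 41.7% of KO cells. Groups with 100 or more cells in both libraries were compared, 8 in all. At least 3 of 6 separate check markers passed in both libraries for the cells named HSC-like and megakaryocyte-like, and all 5 of 5 for those named mast or basophil-like. The cells gated on Flt3, Dntt and Satb1 passed 1 of 4 check markers in WT and 3 of 4 in KO, and the cycling granule-high cells 2 of 6 and 3 of 6, so these are called by their gate genes. S phase, G2/M phase and ungated cells are what the other gates left. Each gate cuts a continuous score, and 281 WT and 737 KO cells lay within 25% of the granule gate, and 973 and 601 within 25% of the HSC gate.

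The mt- share was lower in KO in 8 of 8 groups, by less than in the sum over all cells. In HSC-like cells (733 in WT, 285 in KO) the summed share was 3.27% in WT and 2.55% in KO, thus -0.36 on the log2 scale (-0.37 to -0.34). In cells gated on Flt3, Dntt and Satb1 it was 3.03 and 2.56% (-0.25). The cycling granule-high cells (592 and 1830) had the lowest shares of the 8 groups in both libraries, 1.74 and 1.51%, and the smallest difference (-0.21). Megakaryocyte-like cells had 2.65 and 2.01% (-0.40) and mast or basophil-like cells 2.61 and 2.02% (-0.37). S phase cells had 2.67 and 2.02% (-0.40), G2/M phase cells 2.77 and 2.07% (-0.42) and ungated cells 3.05 and 2.34% (-0.38).

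**Figure D3:**
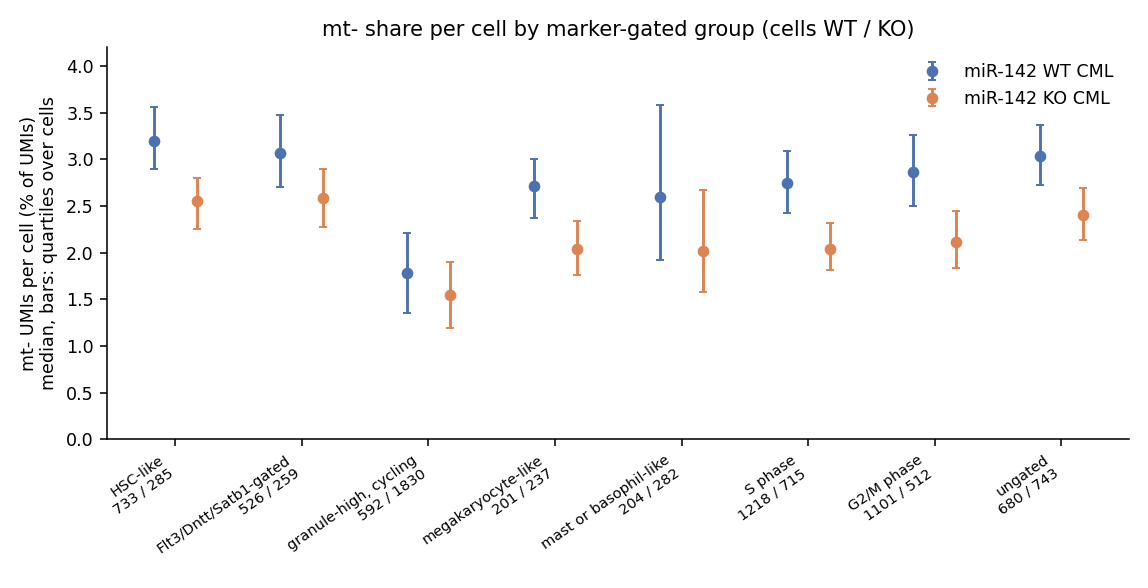
Share of mt- UMIs per cell (percent of the cell's UMIs) in 8 gated groups, as the median over cells (points) with quartiles (bars), for the WT library (blue) and the KO library (orange). The numbers under each group are its cells in WT and KO. The quartile ranges of the libraries were apart in 5 groups and overlapped in 3, the Flt3/Dntt/Satb1-gated, the cycling granule-high and the mast or basophil-like cells.

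Smaller groups were not compared. The granule-high cells that were not cycling had shares of 2.22% in 37 WT cells and 1.87% in 447 KO cells. Cells high in Il7r, Icos, Gata3 and Rora had 2.78% in 13 WT cells and 2.21% in 139 KO cells. Cells high in Jchain, Igkc and Mzb1 were seen in WT alone (36 cells, 0 in KO), with a share of 1.252%, which was lower than that of any group compared in WT.

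Both libraries were then weighted to the same make-up over the 9 groups with 20 or more cells in each library. These were the 8 groups compared and the granule-high cells that were not cycling (37 in WT). With this weighting the summed shares became 2.36% in WT and 1.89% in KO, and the log2 ratio moved from -0.50 to -0.32. Of the 13 mt- genes, 6 were then called lower, as were 6.91% of all genes compared. Without the granule-high cells, an alternative added after the data were seen, the ratio was -0.38 and 7 of 13 were called lower, beside 10.8% of all genes. At one make-up the largest differences were those of mt-Co3 (-0.56) and mt-Nd2 (-0.55), mt-Co1 was at -0.16, mt-Nd4l at 0.03 and mt-Atp8 at 0.27.

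Single mt- genes mostly had one direction over the groups. Of the 13, 10 were lower in KO in 8 of 8 groups, 1 was higher in 8 of 8 and 2 were mixed. The gene higher in all was mt-Atp8, whose level went from 133 to 169 CPM in HSC-like cells (0.34, interval 0.19 to 0.49), from 132 to 177 CPM in Flt3/Dntt/Satb1-gated cells (0.43) and from 87.0 to 102 CPM in cycling granule-high cells (0.24). Its interval lay above 0 in 7 groups and held 0 in megakaryocyte-like cells (0.16). Within the mt- UMIs of a group, its share was higher in KO by 0.44 to 0.79 on the log2 scale.

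mt-Co1, the catalytic subunit of complex IV, was close to level in 2 of the groups. Its level in HSC-like cells was 6489 CPM (WT) and 6566 CPM (KO) (0.02, interval -0.01 to 0.04) and 5689 and 5839 CPM in Flt3/Dntt/Satb1-gated cells (0.04, interval 0.02 to 0.06). In G2/M phase cells it was 4983 and 4040 CPM (-0.30). mt-Co3 of the same complex went from 4687 to 2838 CPM in HSC-like cells (-0.72, interval -0.76 to -0.69) and was lower in every other group, by -0.34 in cycling granule-high cells to -0.72 in ungated cells. The share of mt-Co1 in the mt- UMIs was higher in KO in 8 of 8 groups (0.08 to 0.37) and that of mt-Co3 lower in 8 of 8 (-0.37 to -0.11).

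mt-Nd4l was also mixed, from -0.12 in megakaryocyte-like cells (455 and 417 CPM) to 0.11 in cycling granule-high cells (284 and 307 CPM). mt-Cytb was lower everywhere, most in mast or basophil-like cells, from 3293 to 2054 CPM (-0.68). mt-Nd6 rested on few UMIs within groups. In HSC-like cells it had 260 UMIs in WT and 45 in KO (31.1 and 14.8 CPM, -1.08, interval -1.57 to -0.62).

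The nuclear members compared had a median of 0.01 in the sum over cells, but it was below 0 in 8 of 8 groups, from -0.15 in cycling granule-high cells to -0.04 in S phase and in mast or basophil-like cells, beside a median over all genes of -0.07 to 0.01 within groups. At one make-up the median was -0.09, with 14 of 19 lower, beside a median of -0.06 over all genes. Tfam was lower in KO in 8 of 8 groups (-0.26 to -0.05), with an interval below 0 in 2, G2/M phase and ungated cells. Pnpt1 was lower in 8 of 8 (-0.54 to -0.01), and in HSC-like cells it rested on 199 and 50 UMIs (23.8 and 16.4 CPM). Tfb1m was lower in 8 of 8 as well, with few UMIs.

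Several members that were higher in KO in the sum did not keep that direction over the groups. Slirp was lower in KO in 6 of 8 groups. It was 167 CPM in WT and 150.2 CPM in KO in cycling granule-high cells (-0.15), the group where it was highest, and 69.5 and 54.5 CPM in HSC-like cells (-0.35), where it was lowest. Lrpprc was lower in KO in 7 of 8 groups. Ssbp1 was higher in KO in 5 of 8 and lower in 3, and was 275 and 245 CPM in cycling granule-high cells (-0.17). Lrpprc and Ssbp1 were also highest in these cells, which were more frequent in KO. At one make-up Slirp was at -0.10, Lrpprc at -0.07, Ssbp1 at -0.06 and Tbrg4, higher in 4 groups and lower in 4, at -0.15. Fastk was higher in KO in 7 of 8 groups, but its interval lay above 0 in 0 groups and below 0 in 1, the ungated cells (-0.28). At one make-up it was at 0.05. Fastkd1 was at 0.26 at one make-up and was higher in KO in 7 of 8 groups. It reached a mean of 10 CPM in 5 of the 8, and its interval lay above 0 in 2.

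Subunits of the same complexes from both genomes were set side by side. The nuclear-encoded subunits of complexes I, III, IV and V on the list (70 genes) were higher in KO in 65 of 70, with a median log2 ratio of 0.21. Of the 70, 9 were called higher, such as Uqcr11 of complex III, from 501 to 665 CPM (0.41), and Atp5g1 of complex V, from 739 to 976 CPM (0.40). None was called lower (0 of 70). Over all 7483 genes compared, 2850 were higher in KO, 7.6% were called higher and 18.8% called lower. Of the 70, all but Ndufs1 had a mean of 50 CPM or more. Among the 2737 genes at that level, 9.9% were called higher and 10.3% lower. The ratio of mt-encoded to nuclear-encoded UMIs went from 0.923 to 0.574 over all 4 complexes, a log2 change of -0.68. By complex it went from 0.528 to 0.353 for complex I (-0.58), from 0.869 to 0.473 for complex III (-0.88), from 1.83 to 1.16 for complex IV (-0.66) and from 0.620 to 0.375 for complex V (-0.72).

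Within groups the ratio was lower in KO for each of the 4 complexes in 8 of 8 groups. In HSC-like cells it was 1.59 in WT and 1.20 in KO (-0.40), with the nuclear-encoded subunits at 20507 and 21196 CPM (0.05) and the mt-encoded at 32651 and 25529 CPM (-0.36). Most of the difference in these cells lay on the mitochondrial side. The sum of the nuclear-encoded subunits differed less within groups than over all cells, where it was 0.19. It was 0.14 in ungated, 0.12 in G2/M phase and 0.11 in S phase cells, 0.06 in cycling granule-high, 0.02 in megakaryocyte-like and 0.0014 in Flt3/Dntt/Satb1-gated cells, and -0.03 in mast or basophil-like cells. At one make-up the log2 change over all complexes was -0.39.

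**Figure D4:**
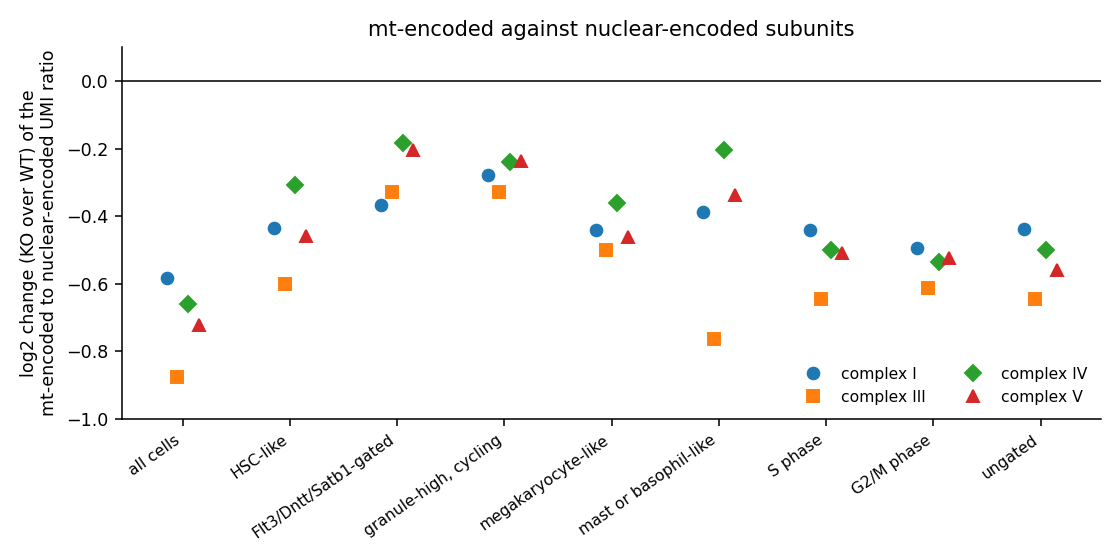
Log2 change (KO over WT) of the ratio of mt-encoded to nuclear-encoded subunit UMIs, by complex (symbols), over all cells and in the 8 gated groups. Every point lies under 0, and those of complex III reach -0.88 over all cells and -0.76 in mast or basophil-like cells.

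Other nuclear genes of mitochondrial gene expression, from lists by function, had a median log2 ratio of -0.06 over 67 compared, with 2 called higher and 10 called lower. Over all 7483 genes compared the median was -0.08, with 7.6% called higher and 18.8% called lower. Of genes for copying and nucleotides (10 compared), Endog, a nuclease, went from 33.4 to 53.2 CPM (0.67). Dguok, which makes deoxynucleotides for mitochondrial DNA, went from 77.7 to 55.7 CPM (-0.48), the nucleotide carrier Slc25a36 from 33.1 to 25.6 CPM (-0.37) and the nuclease Mgme1 from 23.9 to 18.6 CPM (-0.37). Of RNA processing and modification genes (22 compared), 1 was called, Angel2 (-0.36). Of translation factors and tRNA synthetases (21 compared), those called lower included Gfm2 (-0.48) and Mtif2 (-0.35), which act in mitochondrial translation. Of nuclear regulators (8 compared), Gabpb1 (-0.40), Pprc1 (-0.37) and Creb1 (-0.37) were called lower and Esrra was called higher, from 14.6 to 20.8 CPM (0.51). None of the 6 proteases was called.

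Several values moved with the mt- share. The summed share fell with the UMIs of the cell in both libraries, from 3.44% in WT and 2.58% in KO at 8000 to 12000 UMIs to 1.90 and 1.45% above 40000. It was lower in KO in 7 of 7 depth bins, with log2 ratios of -0.53 to -0.39. Weighted to one distribution of UMIs per cell, the ratio was -0.43.

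**Figure D5:**
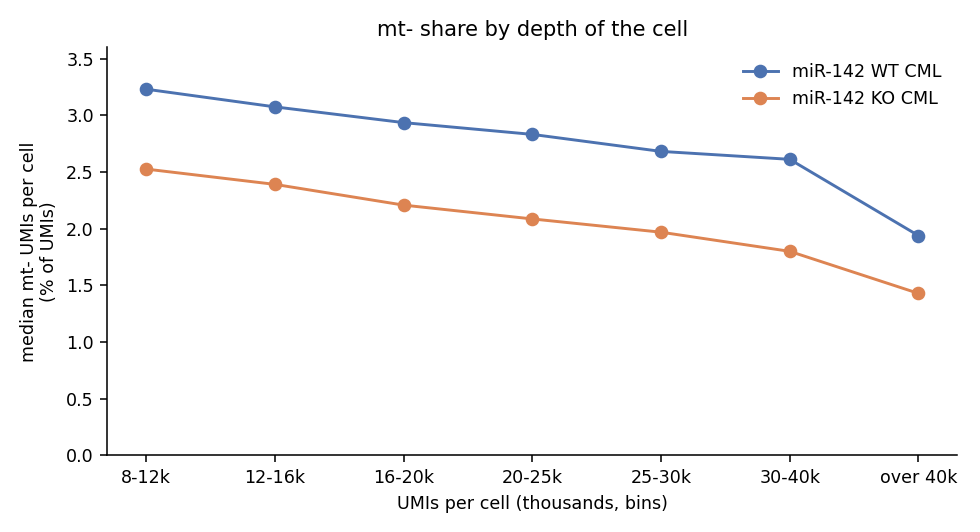
Median share of mt- UMIs per cell (percent of the cell's UMIs) in 7 bins of UMIs per cell, in the WT library (blue) and the KO library (orange). The share is lower in KO in every bin.

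Malat1, a nuclear RNA, was 4056 CPM in WT and 3171 CPM in KO over all cells, but within the groups it was higher in WT in 4 and higher in KO in 4. The summed level of 7 stress genes was 1510 CPM in WT and 1074 CPM in KO, of which 802.6 and 483.6 CPM came from Jun. Of the stress genes, 4 reached 10 CPM, and 4 of 4 were lower in KO. Jun and Egr1 (235.3 and 146.3 CPM) were called lower, beside 18.8% of all genes. Fos was at -0.10 on the log2 scale, and Dnajb1 was level (50.1 and 49.9 CPM). Of the rare genes, Hspa1b and Atf3 were higher in KO and Hspa1a lower. The ribosomal protein genes took 30.8 and 30.6% of UMIs. Barcodes with 10 to 100 UMIs, taken as free RNA, held 3.35% mt- UMIs in WT and 1.95% in KO (log2 ratio -0.78), and 13 of 13 mt- genes were lower there, with mt-Atp8 at 68.2 and 50.7 CPM (-0.43). For the other 12 mt- genes the direction was that seen in cells, while mt-Atp8 was higher in KO cells and lower in KO free RNA. The part of free RNA, stress and depth in the differences between cells was not tested.

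The filter of under 10% mt- UMIs removed 24 barcodes in WT and 4 in KO. Their summed share was 14.0 and 11.2%, their median UMIs were 9126 and 8972, and the largest gated group among them was the cycling granule-high cells (14 of 24 and 3 of 4). With these barcodes kept, the summed shares were 2.55 and 1.79% and the log2 ratio -0.51. At the other end, 31 KO and 9 WT cells had under 0.5% mt- UMIs. Of these, 17 and 8 were cycling granule-high cells.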

How the data were processed

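Single cell RNA-seq (10x Genomics 3′ v3.1) was available from 1 miR-142 WT CML library and 1 of miR-142 KO CML. Per the labels and file headers, the authors made counts of UMIs per gene and barcode in Cell Ranger (6.1.2 in the submitters' processing notes, 4 in the matrix header, build mm10). The deposited values are raw, unfiltered UMI counts, 170881210 in WT and 187721815 in KO over 1957898 and 2055088 barcodes. The study kept cells over 300 UMIs with under 10% mt- UMIs; here the cutoff was 8000 UMIs. Counts were summed over cells (Python 3.11.15, scipy 1.17.1) and scaled to CPM. Log2 ratios carry exact conditional binomial 95% intervals and shares exact (Clopper-Pearson) ones, and a gene with a mean of 10 CPM was called at 20% lower or 25% higher. The interval was tested on simulated data.

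Gates were summed UMIs per 10000 of the cell: Mecom, Mllt3, Pdzk1ip1, Procr and Meis1 at 3 (HSC-like, outside the cycle gates), Flt3, Dntt and Satb1 at 4, Elane, Mpo, Prtn3 and Ctsg at 80, Pf4, Itga2b, Gp1bb, Gp9, Ppbp and Cavin2 at 5 (megakaryocyte-like), 7 mast or basophil genes at 20, Jchain, Igkc and Mzb1 at 50, Il7r, Icos, Gata3 and Rora at 5, and S and G2/M genes at 12 and 15. A check marker passed at 20 CPM and 2-fold over the other cells of its library. Thresholds were set after the marker distributions were seen. Doublets were kept. The automatic Scrublet call (scanpy 1.11.5) marked 0.0186% of WT and 0% of KO cells and was taken as failed, so the 230 WT and 238 KO cells with the highest scores were removed as an alternative. Gene positions and transcripts came from GENCODE vM21, and miRNAs from RefSeq. Members and lists were chosen with earlier results of these data known. Named genes were all members and, of each further list, those called, at most 4 by size, and 1 called gene is not reported here. Alternatives covered the cutoff, the mt- filter, doublets, scaling, make-up, depth, fold and gates.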

Additional observations from a re-analysis of the deposited data

Results flagged for a closer look

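Barcodes below the cutoff of 8000 UMIs, which the comparisons do not use, held a larger summed share of mt- UMIs than the cells. The summed share was 7.87% in WT and 17.8% in KO at 300 to 1000 UMIs, 12.3 and 8.36% at 1000 to 3000 UMIs, and 6.41 and 3.15% at 3000 to 8000 UMIs. Of these barcodes, 275 of 2142, 236 of 838 and 156 of 849 in WT had 10% or more mt- UMIs, as compared with 136 of 524, 83 of 326 and 48 of 1058 in KO. KO was higher than WT in the lowest range alone, in the sum and in the median barcode (0.829% in WT and 1.49% in KO). These medians of the lowest range were below the medians of the cells, 2.85% in WT and 2.004% in KO.

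Of the members, 6 (mt-Nd4l, mt-Co1, Tfb2m, Ssbp1, Slirp and Tbrg4) were higher in KO in 1 gated group and lower in another, each beyond counting error, and the difference between groups was not tested. The log2 ratio of mt-Nd4l was 0.11 in cycling granule-high and -0.12 in megakaryocyte-like cells, and that of mt-Co1 0.038 in Flt3/Dntt/Satb1-gated and -0.30 in G2/M phase cells. Tfb2m was at 0.47 in mast or basophil-like cells (70 UMIs in WT and 131 in KO, interval 0.04 to 0.91) and -0.25 in S phase cells. Ssbp1 was at 0.14 in G2/M phase and -0.17 in cycling granule-high cells. Slirp was at 0.28 in ungated and -0.35 in HSC-like cells. Tbrg4 was at 0.54 in HSC-like cells (113 UMIs in WT and 60 in KO, interval 0.06 to 1.005) and -0.24 in cycling granule-high cells.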

How the results depend on the processing

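The summed mt- level, the median of the mt- genes and the ratio of mt-encoded to nuclear-encoded OxPhos UMIs were lower in KO under each of 11 alternatives. Values are given in that order for each. Without the mt- filter they were -0.51, -0.46 and -0.69, weighted to one make-up of the cell groups -0.32, -0.30 and -0.39, to one distribution of UMIs per cell -0.43, -0.42 and -0.57, and as means of per-cell shares -0.50, -0.46 and -0.71. Without granule-high cells, chosen after seeing the data, they were -0.38, -0.36 and -0.47. The level and the OxPhos ratio were -0.49 and -0.67 at a cutoff of 12000 UMIs, -0.50 and -0.68 over all barcodes above 300 UMIs, and -0.49 and -0.68 without the top Scrublet scores. The OxPhos ratio was -0.68 at a cutoff of 5000 UMIs. Scaled to UMIs that are not mt-, the level was -0.51. With median-ratio size factors the level and median were -0.42 and -0.37, all ratios rising by 0.08, and the share of higher genes among all called went from 28.8 to 48.4%. The median of the nuclear members was -0.086 at one make-up and 0.12 with a mean of 50 CPM, beside -0.061 and 0.0093 over all genes. Only Ssbp1 and Slirp reached a mean of 50 CPM, and both were below 0 at one make-up (-0.063 and -0.099).

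Past 1.5-fold, 5 mt- genes were lower, beside 4.86% of all genes. Past 1.1-fold, 1 nuclear member was lower and 3 were higher, beside 40.7 and 20.3% of all genes. Without the filter on low values 1 (Tfb1m) was called lower, beside 37.4% of all genes. With gates halved the log2 ratio was -0.39 in HSC-like, -0.31 in Flt3/Dntt/Satb1-gated, -0.27 in cycling granule-high, -0.37 in S phase, -0.45 in G2/M phase and -0.35 in ungated cells. Doubled, it was -0.32 in mast or basophil-like, -0.43 in S phase, -0.43 in G2/M phase and -0.40 in ungated cells, and the other groups had too few cells in at least 1 library.

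Of the 13 mt- genes, 12 kept their sign under each alternative, as compared with 6 of 22 nuclear members. At one make-up mt-Nd4l (0.030), Twnk (0.014), Ssbp1 (-0.063), Lrpprc (-0.074), Slirp (-0.099), Tbrg4 (-0.15), Fastkd2 (-0.18), Fastkd3 (-0.10) and Fastkd5 (-0.12) changed sign. Without granule-high cells Top1mt (-0.0042), Lrpprc (-0.048), Slirp (-0.025), Tbrg4 (-0.034), Fastkd2 (-0.12), Fastkd3 (-0.053), Fastkd5 (-0.11), Polg2 (-0.012) and Mterf3 (0.0065) did. The cause was not tested. No paired analysis was possible because each group has 1 library, and no library could be left out.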
